A study of Mus musculus with 24 samples.

Results

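Loss of the RNA-binding protein HuR was compared with its single-copy control in total RNA of hypoxic mouse macrophages, over every gene that the 6 libraries detected. The KO mice, numbered KO-176, KO-281 and KO-301, had both copies of the HuR gene Elavl1 floxed (HuR fl/fl). The control mice, numbered HET-97, HET-102 and HET-129, had 1 floxed and 1 intact copy (HuR +/fl), so the control was a heterozygote and not a wild type. All 6 mice carried the Csf1r-iCre transgene, a Cre recombinase driven by the promoter of the macrophage growth factor receptor gene, and expressed EGFP-L10a, a ribosomal protein with a fluorescent tag. Bone marrow of mice aged 8 to 12 weeks was grown for 6 days in medium conditioned by L cells, and the resulting macrophages spent 18 h at 1% oxygen before lysis. Each group held 3 libraries of poly(A) RNA, 1 per mouse. A gene was described when it reached at least 1 TPM (the share of a library's transcripts taken by a gene, scaled for gene length) in 3 of the 6 libraries, which held for 11741 of the 52636 genes listed. The whole series has 24 libraries in 8 groups, which also cover cells of the same mice at 20% oxygen and ribosome-bound RNA pulled down through the tag (translating ribosome affinity purification, TRAP).

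HuR, also called ELAVL1, is a nuclear protein that moves to the cytoplasm and binds AU- and U-rich stretches, most of them in introns and 3' untranslated regions (3' UTRs). Bound messages are in many cases protected from decay, in competition with proteins such as tristetraprolin that bind similar stretches and recruit deadenylases. Messages of cytokines, immediate early transcription factors and Vegfa are textbook examples of this kind of control in macrophages and other cells. Under low oxygen, hypoxia-inducible factors (HIF) additionally induce genes of glycolysis, angiogenesis and iron handling.

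The libraries had the transcripts of macrophages. Csf1r ranged from 248 to 428 TPM in KO libraries and from 309 to 454 TPM in control libraries, and Cd68, a lysosomal glycoprotein of macrophages, from 1106 to 2224 TPM in KO and from 1616 to 2510 TPM in control libraries. Of the markers of other cells, 2 of 9 for neutrophils (Ly6g and Elane), 3 of 7 for lymphocytes (Cd3e and Cd79a among them) and 3 of 4 for erythroid cells were listed at 0 in all 6 libraries. Others were present: S100a8, a calcium-binding protein of neutrophils, was at 5.96 to 38.5 TPM in KO and 7.03 to 18.6 TPM in control libraries, and Ighm, the immunoglobulin heavy chain of B cells, at 5.69 to 22.8 TPM in KO and 4.35 to 42.8 TPM in control libraries. The neutrophil list of 17 genes summed to 81.99, 63.1 and 279.6 TPM in KO and to 95.7, 63.9 and 190.2 TPM in control libraries, highest in KO-301 and HET-129. The lymphocyte list of 15 genes summed to 96.8, 53.2 and 49.98 TPM in KO and to 161.6, 109.9 and 80.1 TPM in control libraries. Collagen genes of stromal cells were present at a low level, with the fibroblast and stromal list summing to 24.3, 16.7 and 100.9 TPM in KO and to 21.6, 5.39 and 45.8 TPM in control libraries. A library of each genotype stood apart from the rest: on the first principal component, with 54.7% of the variance, KO-301 scored 71.1 and HET-129 scored 38.0, against -37.9 to -16.8 for the rest. Profiles correlated at 0.899 to 0.968 within a genotype (6 pairs of libraries) and at 0.884 to 0.975 between genotypes (9 pairs), so these ranges overlapped. Y-linked transcripts were absent from KO-281 and HET-102, so each group held 1 female and 2 males by this measure.

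Elavl1, the gene targeted in the knockouts (ENSMUSG00000040028.10, chromosome 8, 4285382 to 4325413, minus strand, GRCm38), was not lower in the libraries labelled KO. It stood at 29.4, 34.9 and 26.1 TPM in KO libraries and 21.2, 59.8 and 24.9 TPM in control libraries. HET-102 alone was high, and the remaining control libraries were below every KO library. The log2 difference of TPM + 1, KO minus control, was -0.08 ± 0.39 (SE), with a 95% interval of -1.01 to 0.85 and an adjusted p of 0.989 by limma. An exact two-sided permutation test of the 3 KO against the 3 control libraries gave p = 1, where the smallest p this design allows is 0.1. Without HET-102 the difference was 0.37, and without HET-97 it was -0.36, so its sign rested on single control mice. It was 0.04 after median-of-ratios scaling. Ccl25, which overlaps an exon of Elavl1 on the opposite strand, had 6.28, 6.88 and 11.0 TPM in KO and 5.83, 6.59 and 8.61 TPM in control libraries. A value for the whole gene cannot show whether the floxed exon was present, because a shortened message still yields reads. KO is therefore used as the label of a library, and every direction below depends on that label.

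No gene passed the test between KO and control macrophages at 1% oxygen. Linear models with empirical Bayes moderation (limma-trend) on log2(TPM + 1), with Benjamini-Hochberg adjustment over the 11741 genes, called 0 genes at an adjusted p under 0.05 (0%), and the smallest adjusted p was 0.117, reached by C5ar1 and Krcc1. At an unadjusted p under 0.05 there were 82 genes higher (0.698%) and 289 genes lower (2.46%) in KO, 3.16% of genes in all. In the KO libraries 4102 genes averaged higher and 7639 lower, with a median log2 difference of -0.11. This tilt depended on the scaling: after quantile scaling 5783 genes averaged higher and 5958 lower with a median of -0.01, and after median-of-ratios scaling 5945 and 5796 with a median of 0.00. At an unadjusted p under 0.05 quantile scaling gave 370 genes, 194 of them lower, and median-of-ratios scaling 355 genes, 190 of them lower, with 0 genes past the adjusted threshold in either. All 3 KO libraries lay above all 3 control libraries for 253 genes (2.15%) and below them for 749 genes (6.38%). These shares are the background for the counts of gene groups below, and a group or gene is called apart where the libraries of the genotypes do not overlap. Quantile scaling left 437 genes (3.72%) apart with KO higher and 493 (4.20%) with KO lower, and median-of-ratios scaling 434 (3.70%) and 513 (4.37%). The same mice at 20% oxygen also gave 0 calls among 11658 genes, with 468 at an unadjusted p under 0.05, and TRAP RNA at 1% oxygen gave 0 among 10943, with 486. Leaving out KO-176 gave 1 call higher and 1 lower in KO (1500015A07Rik and C5ar1), leaving out KO-281 or KO-301 gave 1 lower each (Arhgap19 and Gm11942), and leaving out a control mouse gave 0. The number at an unadjusted p under 0.05 was 851 without KO-176 and 172 without HET-97. The median SE of a difference in hypoxic total RNA was 0.27.

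**Figure D1:**
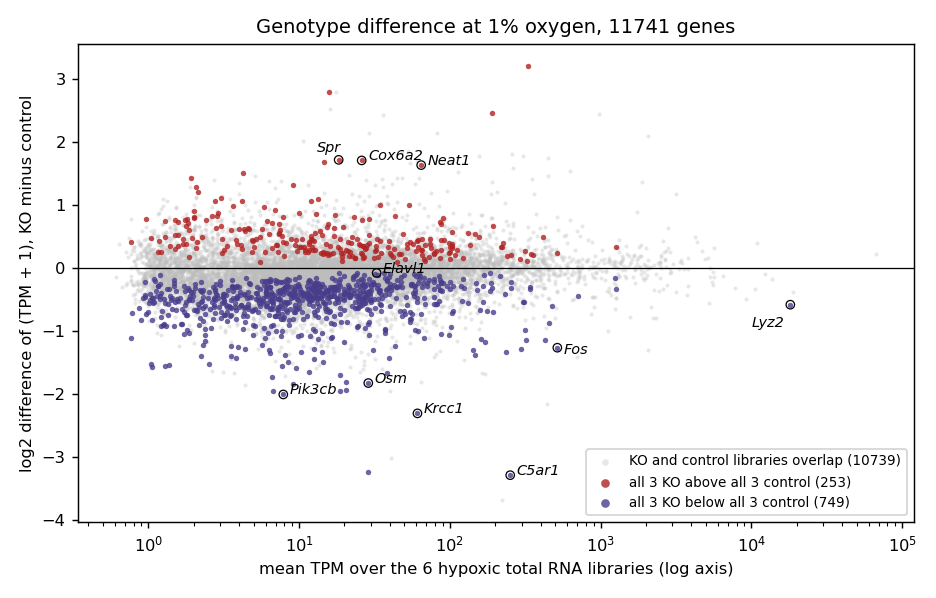
Each point is a gene, at its mean TPM over the 6 hypoxic total RNA libraries (log axis) and its log2 difference, KO minus control. Coloured points are the 253 genes whose KO libraries all lie above the control libraries and the 749 whose KO libraries all lie below, with more of the second kind, and C5ar1 lies at -3.29.

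C5ar1 and Krcc1 showed the strongest separation. C5ar1 (ENSMUSG00000049130.6, chromosome 7, 16246743 to 16259540, minus strand) encodes the receptor for the complement fragment C5a, which draws myeloid cells to sites of complement activation. Its level was 67.3, 41.5 and 33.3 TPM in KO-176, KO-281 and KO-301, against 499, 390.0 and 479 TPM in HET-97, HET-102 and HET-129. The groups were far apart, and the log2 difference was -3.29 ± 0.28 (adjusted p 0.117 by limma). Over the alternatives run, its adjusted p by limma ranged from 0.0431, when KO-176 was left out, to 0.999. In the fit of 12 libraries without a replicate block it was 0.791. Krcc1 (ENSMUSG00000053012.17, chromosome 6, 71271677 to 71285319, plus strand), which encodes a lysine-rich coiled-coil protein, had 22.9, 18.7 and 17.3 TPM in KO libraries and 87.5, 90.0 and 129.8 TPM in control libraries. Its log2 difference was -2.31 ± 0.22, with an adjusted p of 0.117 by limma.

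Libraries from the same mice at 20% oxygen did not repeat either difference. There C5ar1 had 73.4, 33.6 and 349 TPM in KO and 92.7, 57.8 and 86.7 TPM in control libraries, so KO-301 alone was high. In hypoxic TRAP RNA it had 246, 24.99 and 135 TPM in KO and 25.9, 203 and 221 TPM in control libraries, with high and low libraries in both genotypes. Krcc1 at 20% oxygen had 122, 22.8 and 21.6 TPM in KO and 118, 20.8 and 26.8 TPM in control libraries. A single library of each genotype was high there, and the rest were at the level of the hypoxic KO libraries. In hypoxic TRAP RNA Krcc1 had 74.0, 121 and 100.4 TPM in KO and 87.0, 78.3 and 93.0 TPM in control libraries, with no separation. In total RNA both genes thus had separate high and low levels, of 349 to 499 and 33.3 to 92.7 TPM for C5ar1 and of 87.5 to 129.8 and 17.3 to 26.8 TPM for Krcc1. What set the level of a library was not tested.

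The other genes named as lower in KO (those of smallest p among genes that were apart and averaged 4 TPM or more) had adjusted p of 0.977. Clk1, a kinase that phosphorylates SR splicing factors, stood at 68.9, 74.4 and 63.5 TPM in KO libraries and 147, 124 and 131 TPM in control libraries (-0.95 ± 0.15). Gnb1, a beta subunit of heterotrimeric G proteins, stood at 140.1, 153 and 145 TPM in KO libraries and 210.0, 251 and 256 TPM in control libraries (-0.70 ± 0.16). For these 2 genes the KO libraries also lay below the control libraries at 20% oxygen and in hypoxic TRAP RNA, with log2 differences of -0.56 and -0.97 for Clk1 and of -0.66 and -0.49 for Gnb1. Those libraries come from the same 6 mice, so this is not an independent repeat. Il16, which encodes the precursor of a chemotactic cytokine, had 4.39, 3.08 and 2.35 TPM in KO libraries and 20.7, 16.2 and 8.10 TPM in control libraries (-1.84 ± 0.38), with Stard5 overlapping it on the opposite strand at 18.7 to 22.2 TPM in all 6 libraries. Il16 was also lower in every KO mouse at 20% oxygen (-1.55), while the TRAP libraries overlapped.

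Pik3cb, a catalytic subunit of phosphoinositide 3-kinase, had 4.55, 1.59 and 1.78 TPM in KO libraries and 17.4, 11.5 and 10.4 TPM in control libraries (-2.01 ± 0.37). Ap1g1, a subunit of the clathrin adaptor at the trans-Golgi network, had 23.4, 16.9 and 12.1 TPM in KO libraries and 33.5, 67.5 and 77.6 TPM in control libraries (-1.67 ± 0.38). Rasgrp2, an exchange factor for the small GTPase Rap1, had 2.83, 3.66 and 3.56 TPM in KO libraries and 9.16, 14.9 and 11.9 TPM in control libraries (-1.56 ± 0.24). KO and control libraries overlapped for these 3 genes at 20% oxygen and in TRAP RNA. Zmym5, a zinc finger gene, differed by -1.39 ± 0.27 and Vaultrc5, a vault RNA, by -1.95 ± 0.38. Vaultrc5 is a short RNA transcribed by RNA polymerase III, and it had 0.917, 4.10 and 2.04 TPM in KO libraries and 9.60, 11.0 and 12.5 TPM in control libraries.

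Among genes higher in KO, Spr had the smallest p (adjusted p 0.977). Spr encodes sepiapterin reductase, which completes the synthesis of tetrahydrobiopterin, a cofactor of nitric oxide synthases. Its level was 33.7, 28.9 and 22.98 TPM in KO libraries, against 6.71, 11.0 and 6.60 TPM in control libraries (1.72 ± 0.26). At 20% oxygen it had 26.4, 24.8 and 20.6 TPM in KO and 22.8, 21.9 and 17.6 TPM in control libraries, and in hypoxic TRAP RNA 26.7, 23.1 and 23.8 TPM in KO and 26.5, 34.3 and 29.2 TPM in control libraries. The hypoxic total RNA libraries of controls, at 6.60 to 11.0 TPM, were below all the others, which ranged from 17.6 to 34.3 TPM.

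Tgfbi, a secreted matrix protein induced by TGF-beta, had 278, 193 and 245 TPM in KO libraries and 155, 151 and 139 TPM in control libraries (0.67 ± 0.18). Ier3ip1, a small protein of the endoplasmic reticulum, had 97.8, 133 and 96.8 TPM in KO libraries and 72.7, 58.0 and 69.4 TPM in control libraries (0.69 ± 0.19). All KO libraries lay above all control libraries at 20% oxygen and in TRAP RNA too, with log2 differences of 1.01 and 0.72 for Tgfbi and of 0.84 and 0.75 for Ier3ip1. Tgfbi in normoxic total RNA was at 179.7, 181 and 188 TPM in KO and at 98.2, 89.5 and 84.0 TPM in control libraries. Cox6a2, a subunit isoform of cytochrome c oxidase best known from heart and skeletal muscle, had 23.6, 71.0 and 28.1 TPM in KO libraries and 15.7, 5.88 and 11.9 TPM in control libraries (1.71 ± 0.50), with KO-281 the highest. Its groups did not overlap at 20% oxygen (1.16) and overlapped in TRAP RNA.

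Mtx1, part of the protein import machinery of the outer mitochondrial membrane, had 44.0, 39.9 and 54.0 TPM in KO libraries and 27.3, 20.5 and 19.8 TPM in control libraries (1.001 ± 0.21). Mrpl57, a protein of the mitochondrial ribosome, had 29.99, 36.8 and 32.1 TPM in KO libraries and 15.5, 22.8 and 19.6 TPM in control libraries (0.76 ± 0.20). Dynll1, a light chain of dynein, had 51.0, 80.8 and 84.2 TPM in KO libraries and 31.3, 32.4 and 40.4 TPM in control libraries (1.005 ± 0.24), and in hypoxic TRAP RNA its KO libraries lay below the control libraries instead, at 29.8, 80.4 and 53.3 against 86.1, 97.9 and 96.8 TPM. Trappc4, a subunit of a vesicle tethering complex, differed by 0.72 ± 0.18, but it overlaps the abundant ribosomal protein gene Rps25 on the opposite strand, and reads of these 2 genes may not be separable without strand information. Rnf146, a ubiquitin ligase that recognises poly-ADP-ribosylated proteins, differed by 0.66 ± 0.18, and Cnn2, an actin-binding calponin, by 0.84 ± 0.26. Of the 20 named genes 8 were apart in the same direction at 20% oxygen, 5 in hypoxic TRAP RNA and 4 in both (Tgfbi, Ier3ip1, Clk1 and Gnb1). Over all 11741 genes 2.22% were apart with KO higher and 7.91% with KO lower at 20% oxygen, and 2.9% and 7.43% in hypoxic TRAP RNA. Of the 253 genes apart with KO higher in hypoxic total RNA, 20.6% were apart the same way at 20% oxygen, 18.6% in TRAP RNA and 7.51% in both, and of the 749 with KO lower 27.6%, 21.9% and 7.61%. The settings share the same 6 mice.

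**Figure D2:**
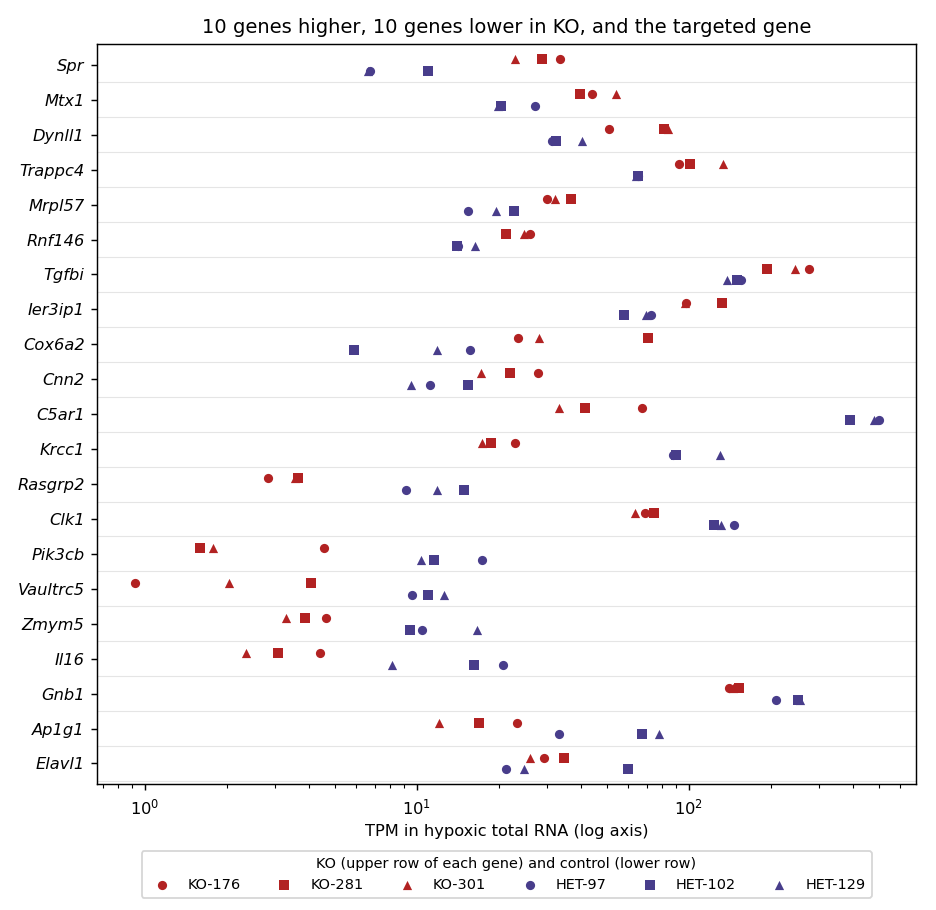
TPM of the 10 genes named as higher in KO, the 10 named as lower and Elavl1 in each hypoxic total RNA library (log axis), with KO mice in the upper row of each gene and control mice in the lower row. The naming rule took only genes that were apart, so the separation of the 20 is given by the rule, and Elavl1 overlaps.

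**Figure D3:**
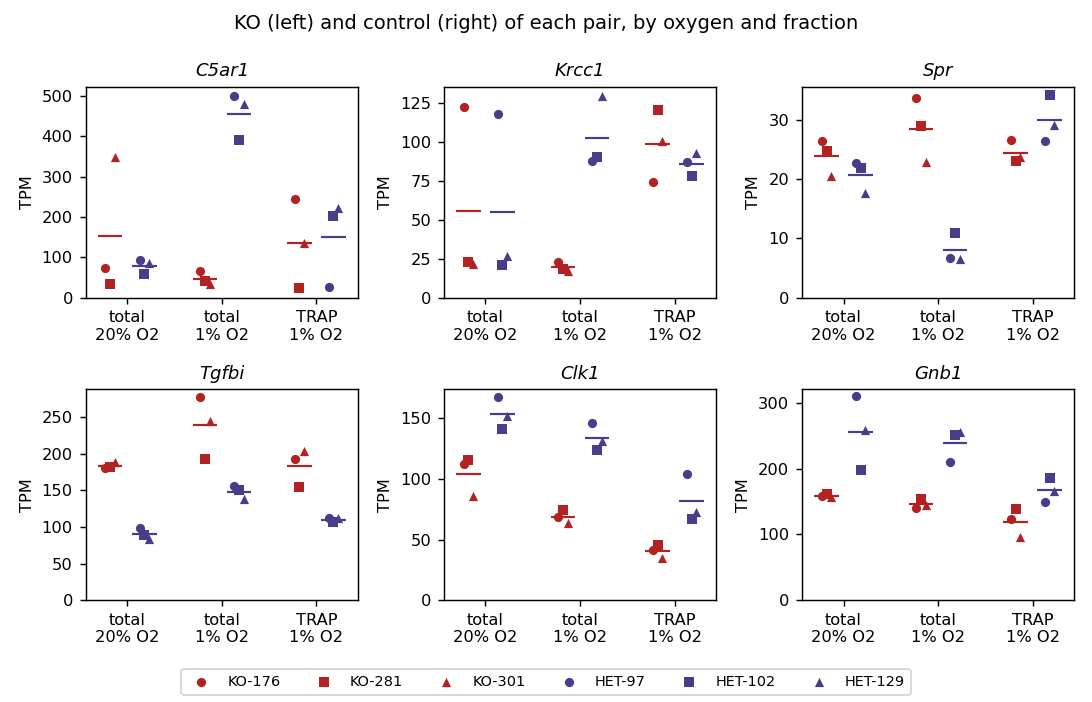
TPM of 6 genes in KO (left of each pair) and control libraries (right) for total RNA at 20% oxygen, total RNA at 1% oxygen and TRAP RNA at 1% oxygen, with bars at the means of 3 mice. Of these 3 settings C5ar1, Krcc1 and Spr separate in hypoxic total RNA, and Tgfbi, Clk1 and Gnb1 separate in all 3 settings.

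Whether the genotype difference itself depended on oxygen was tested in a model over 12 total RNA libraries, with each mouse as its own block. It called 0 of 12403 genes (0%), with 574 at an unadjusted p under 0.05. The smallest adjusted p was 0.0690, for Pum2, a Pumilio repressor of messages, whose log2 difference, KO minus control, was 0.25 at 1% oxygen and -1.16 at 20% oxygen, a contrast of 1.41 ± 0.11. At 1% oxygen Pum2 had 52.2, 54.1 and 41.3 TPM in KO libraries and 55.9, 56.4 and 21.5 TPM in control libraries, and at 20% oxygen 20.8, 20.7 and 16.9 TPM in KO and 64.0, 59.7 and 22.99 TPM in control libraries. The change between oxygen levels was in the KO libraries, while control libraries spanned a wide range at both. For Spr the difference between oxygen levels was 1.52 ± 0.20 (adjusted p 0.308), and for C5ar1 it was -3.59 ± 0.90. With a pseudocount of 0.1 in place of 1 this model called 2 genes, Pum2 and mt-Tc.

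Messages reported as HuR targets were looked at as a list drawn from general knowledge of this family. Of 51 genes listed 46 were kept, and in KO libraries 33 averaged lower and 13 higher, with a median of -0.23 against -0.11 over all genes. None passed. The groups did not overlap for 7 of the 46, all lower in KO (15.2%, against 6.38% of all genes): Fos, Nf1, Casp2, Vegfa, Dusp1, Nfe2l2 and Sirt1. Without KO-301 and HET-129 the median was -0.10 against -0.11 over all genes, and 13 of 46 (28.3%) were below in both remaining KO libraries against 23.1% of all genes. After quantile scaling 7 of 46 were apart lower (15.2% beside 4.20%), and after median-of-ratios scaling 4 (8.70% beside 4.37%). Ptgs2, Nos2, Il6, Wnt5a and Snai1 were not kept.

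An AU-rich element of the nonamer type stands in the longest annotated 3' UTR of Fos, Vegfa and Dusp1, and was not found in that of Nf1, Casp2, Nfe2l2 and Sirt1. It is printed here for Fos, Dusp1, Vegfa and for Zfp36, a gene of the immediate early list, since the KO libraries of all 4 lay below the control libraries. The nonamer was not found in that UTR of Fosb, Junb, Nr4a1, Btg2, Dusp2 and Rhob, immediate early genes that were also apart with KO lower. After median-of-ratios scaling Dusp1 was no longer apart. Dusp1 has 2 nonamers, of which the window shows 1. Each is 30 bases of the annotated 3' UTR in GENCODE M21 on GRCm38, 5' to 3' on the gene's strand, with the nonamer in capitals. The Fos window is at chr12:85477102-85477131 on the plus strand, and the others, all on the minus strand, are at chr17:26506159-26506188 for Dusp1, chr17:46017166-46017195 for Vegfa and chr7:28376951-28376980 for Zfp36.
Fos: gtgttttcaatTTATTTATTaagatggatt
Dusp1: ggagctggtccTTATTTATTtaacaccccc
Vegfa: tttgttatcatTTATTTATTggtgctactg
Zfp36: ttatgacgactTTATTTATTgtattaagat

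Fos, a subunit of the AP-1 transcription factor, had 384, 274 and 241 TPM in KO libraries and 614, 574 and 1012 TPM in control libraries (-1.27 ± 0.29). Dusp1, a phosphatase that switches off MAP kinases, had 50.3, 78.7 and 89.6 TPM in KO libraries and 105, 131 and 397 TPM in control libraries (-1.31 ± 0.51), with HET-129 the highest by far. Vegfa, the angiogenic growth factor induced by HIF, had 86.7, 64.5 and 29.0 TPM in KO libraries and 141, 106 and 100.2 TPM in control libraries (-1.05 ± 0.40), with KO-301 the lowest. Zfp36 encodes tristetraprolin and had 392, 289 and 279.9 TPM in KO libraries and 473, 520.5 and 789.8 TPM in control libraries (-0.87 ± 0.26). For Fos, Dusp1 and Vegfa the groups were apart in the same direction at 20% oxygen (-1.56, -1.65 and -1.59) and overlapped in TRAP RNA. For Zfp36 they were apart in both, at -1.18 in normoxic total RNA and -0.91 in hypoxic TRAP RNA. Of the other listed HuR targets that were apart, Nf1, a negative regulator of Ras, had 5.91, 3.41 and 5.18 TPM in KO libraries and 12.5, 10.5 and 8.72 TPM in control libraries (-0.998 ± 0.26) and Casp2, a caspase, had 3.74, 2.07 and 1.26 TPM in KO libraries and 18.7, 6.27 and 7.48 TPM in control libraries (-1.74 ± 0.46).

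The nonamer TTATTTATT, read on the message strand with overlaps counted, was found in the longest annotated 3' UTR of 839 of 10420 coding genes kept (8.05%). Of these 839 genes 75.2% averaged lower in KO, with a median log2 difference of -0.18, against 66.4% and -0.11 for the 9581 genes without it. Genes with the nonamer had longer 3' UTRs, with a median of 2308 against 1067 bases. Among genes with at least 1000 bases of 3' UTR, 77.2% of 698 genes with the nonamer and 72.4% of 5004 without it averaged lower, with medians of -0.20 and -0.16. Groups did not overlap, with KO lower, for 7.15% of the 839 genes, beside 6.60% of all 10420. The share of genes with a nonamer that stood apart was thus near that background. A match is a run of letters and not evidence of binding.

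Immediate early genes and feedback inhibitors of NF-kB signalling, which are switched on within minutes of a stimulus, had in the deposited values the highest share of members apart with KO lower among the lists with more than 10 genes kept. Of 47 listed 45 were kept, 35 of them averaged lower in KO and 10 higher, and the median was -0.30. None passed, and for 9 of the 45 all KO libraries lay below all control libraries (20%, against 6.38% of all genes): Fos, Fosb, Junb, Nr4a1, Zfp36, Btg2, Dusp1, Dusp2 and Rhob. Nr4a1, an orphan nuclear receptor, had 19.3, 7.62 and 2.33 TPM in KO libraries and 30.8, 32.5 and 30.3 TPM in control libraries (-1.95 ± 0.61). Btg2, which recruits the CCR4-NOT deadenylase, had 83.4, 102.1 and 95.0 TPM in KO libraries and 118, 202 and 362 TPM in control libraries (-1.13 ± 0.39). Fosb, a partner in AP-1, had 1.31, 2.14 and 0.932 TPM in KO libraries and 3.05, 4.76 and 10.6 TPM in control libraries (-1.43 ± 0.43). Of the 9 genes 8 were also apart at 20% oxygen, all but Nr4a1, and 2 in TRAP RNA, Zfp36 and Nr4a1, beside 27.6% and 21.9% of the 749 genes apart with KO lower in hypoxic total RNA. The list summed to 3575, 3670 and 3250 TPM in KO and to 4113, 4240 and 6972 TPM in control libraries, with HET-129 highest. Without HET-129 and KO-301 the median was -0.24, and 14 of 45 (31.1%) lay below in KO against 23.1% of all genes. Apart with KO lower were 11 of 45 (24.4%) after quantile scaling and 5 of 45 (11.1%) after median-of-ratios scaling, beside 4.20% and 4.37% of all genes.

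HIF-responsive genes averaged lower in KO, with 33 of 42 kept genes lower, 9 higher and a median of -0.37. None passed. The groups were apart for 6 of 42 (14.3%, against 6.38% of all genes), all lower in KO: Vegfa, Selenbp1, Ak4, Hilpda, Pdk1 and Pgm2. Hilpda, an inhibitor of lipid droplet breakdown, had 93.5, 37.7 and 64.1 TPM in KO libraries and 132, 99.6 and 164 TPM in control libraries (-1.07 ± 0.36) and was apart at 20% oxygen (-0.97) and in TRAP RNA (-0.95) too. Ak4, a mitochondrial adenylate kinase, had 5.002, 12.9 and 6.75 TPM in KO libraries and 24.7, 17.1 and 13.7 TPM in control libraries (-1.13 ± 0.37). Pdk1, a kinase that inhibits pyruvate dehydrogenase, had 52.8, 35.1 and 36.9 TPM in KO libraries and 75.4, 58.7 and 54.2 TPM in control libraries (-0.59 ± 0.23). Selenbp1, a selenium-binding protein, had 12.1, 8.97 and 8.61 TPM in KO libraries and 18.6, 14.9 and 15.4 TPM in control libraries (-0.67 ± 0.21). Mif and Hmox1, the most abundant of the list, overlapped, at 0.12 and -0.18. Without KO-301 and HET-129 the median was -0.19 and 9 of 42 (21.4%) lay below in KO, which is no more than the 23.1% of all genes. Quantile scaling left 5 of 42 (11.9%) apart lower and median-of-ratios scaling 4 (9.52%), beside 4.20% and 4.37% of all genes.

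Glycolytic genes were closer to the background. Of 24 kept genes 17 averaged lower in KO, the median was -0.17, and 2 (8.33%, beside 6.38% of all genes) were apart with KO lower, Pdk1 and Pfkfb3. Pfkfb3, which makes the activator of phosphofructokinase, had 4.83, 6.16 and 10.03 TPM in KO libraries and 13.8, 11.7 and 39.1 TPM in control libraries (-1.34 ± 0.49). Aldoa and Ldha, the most abundant, differed by 0.00 ± 0.24 and 0.09 ± 0.20, and the sign for Aldoa turned under quantile scaling (-0.05).

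Proteins that bind AU-rich elements were described as a list that also holds other RNA-binding proteins, Celf1 and Igf2bp3 among them. All 30 genes listed were kept, 24 averaged lower in KO and 6 higher, and the median was -0.12. Apart with KO higher were 4 (13.3%, beside 2.15% of all genes), and the same 4 after quantile and median-of-ratios scaling, where 3.72% and 3.70% of all genes were: Celf1 at 19.2, 22.1 and 15.8 TPM in KO libraries and 11.5, 13.3 and 10.4 TPM in control libraries (0.64 ± 0.21), Igf2bp3 at 11.1, 7.90 and 5.04 TPM in KO libraries and 3.92, 5.02 and 3.62 TPM in control libraries (0.75 ± 0.31), and Hnrnpd and Tia1 at 0.27 and 0.36. Celf1 binds GU-rich elements, Igf2bp3 is an m6A reader and Hnrnpd encodes AUF1, which competes with HuR. Zfp36 and Pcbp1 were apart with KO lower, Pcbp1 by -0.09 (0.04 after median-of-ratios scaling). Of the 6 genes apart in either direction, 2 were apart the same way at 20% oxygen and 1, Zfp36, in hypoxic TRAP RNA. Over all genes these shares were 20.6% and 18.6% of those apart with KO higher in hypoxic total RNA. For those with KO lower they were 27.6% and 21.9%. Without KO-301 and HET-129, 5 of 30 (16.7%) were apart with KO higher, beside 11.0% of all genes, and 6 (20%) with KO lower, beside 23.1%. Among 51 genes of the decay machinery the median was -0.13. Apart higher were 2 (3.92%, beside 2.15% of all genes), Exosc8 at 0.42 and Lsm1 at 0.22. Apart lower were 4 (7.84%, beside 6.38%), Btg2, Cnot6l, Cnot2 and Xrn1, the last at -0.30. Splicing factors had a median of -0.07 over 74 genes (0.01 after quantile and 0.05 after median-of-ratios scaling). Of these, Hnrnpd was apart higher (1.35%, beside 2.15% of all genes). Apart lower were 3 (4.05%, beside 6.38%), Rbm5 at -0.64, Srsf5 at -0.33 and Rbm22 at -0.21.

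**Figure D4:**
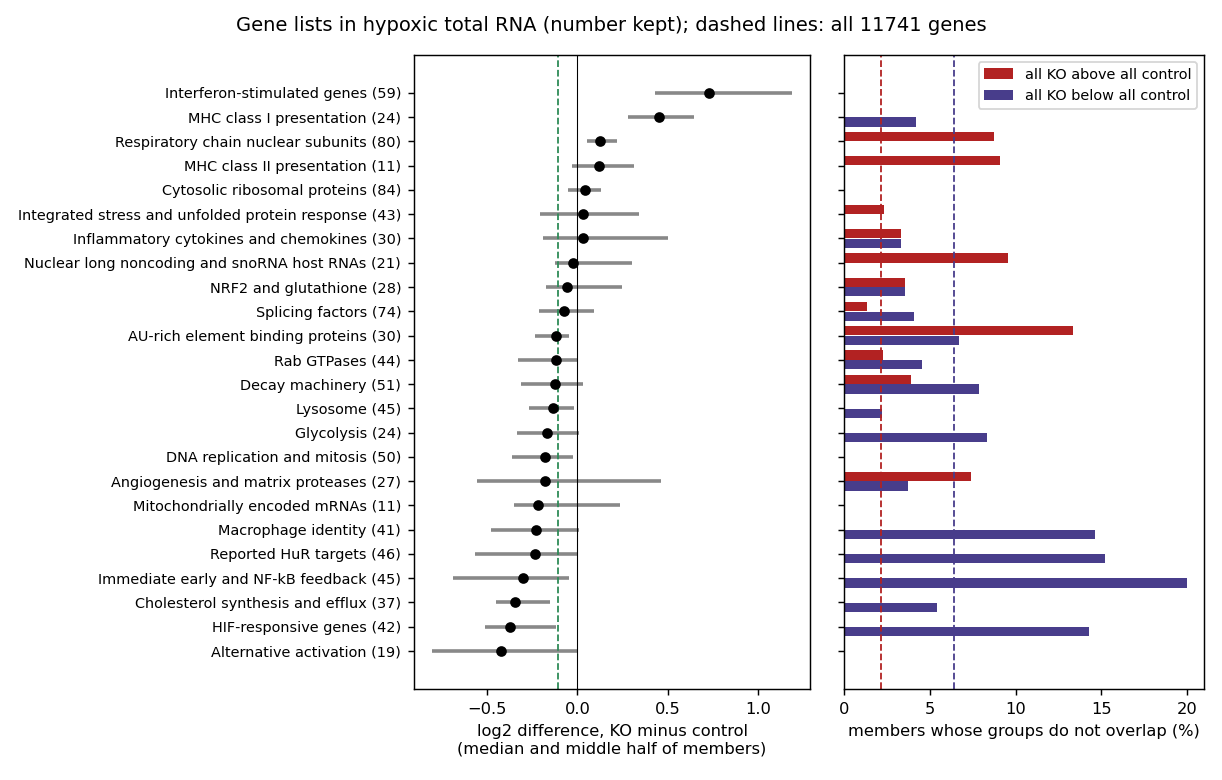
Left, the median log2 difference, KO minus control, of gene lists with more than 10 genes kept (points) and the interquartile range of their members (lines). Right, the share of members whose KO libraries all lie above (upper bar of each list) or all below (lower bar) the control libraries. Dashed lines give all 11741 genes, at -0.11, 2.15% and 6.38%, and interferon-stimulated genes have the highest median with no member apart.

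Macrophage identity genes were lower in part. Of 41 kept genes 30 averaged lower in KO, with a median of -0.23, and 6 (14.6%, against 6.38% of all genes) were apart, all lower, among them Lyz1, Lyz2, Csf2ra, Cd14 and Fcgr3. Lyz2, the lysozyme gene that is among the most abundant messages of these cells, had 13782, 18605 and 11630.5 TPM in KO libraries and 21450.1, 22936 and 20455 TPM in control libraries (-0.58 ± 0.36). Lyz1, its close paralogue, had 37.1, 55.2 and 34.0 TPM in KO libraries and 64.0, 66.8 and 71.9 TPM in control libraries (-0.70 ± 0.22), and reads may be shared between the pair. Lyz2 was apart in all 3 settings. Cd14, the lipopolysaccharide co-receptor, had 464, 469 and 223 TPM in KO libraries and 478, 546 and 666 TPM in control libraries (-0.61 ± 0.33). Itgam, which encodes CD11b, had 318, 337 and 288 TPM in KO libraries and 181, 320.1 and 120.3 TPM in control libraries, with overlap (0.71 ± 0.35). After quantile scaling 3 of 41 (7.32%) were apart lower and after median-of-ratios scaling 0, beside 4.20% and 4.37% of all genes, so this count depended on the scaling. Without KO-301 and HET-129, 10 of 41 (24.4%) lay below in KO, near the 23.1% of all genes. Summed over the list, KO libraries had 61864, 54823 and 67315 TPM and control libraries 76131, 68315 and 74287 TPM. In bulk RNA, fewer cells of a kind and less message per cell cannot be told apart.

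Cytokines and secreted factors showed no common direction. Of 30 kept inflammatory cytokines and chemokines 18 averaged higher in KO and 12 lower, with a median of 0.03. Apart were 1 with KO higher (3.33%, beside 2.15% of all genes) and 1 with KO lower (3.33%, beside 6.38%). Osm, encoding the cytokine oncostatin M, was apart with KO lower, at 15.8, 12.3 and 6.85 TPM in KO libraries and 22.5, 48.5 and 66.8 TPM in control libraries (-1.83 ± 0.46), and was also apart at 20% oxygen (-1.52). Csf1, the growth factor on which these cells depend, was apart with KO higher, at 11.4, 6.58 and 6.33 TPM in KO libraries and 2.94, 2.81 and 5.08 TPM in control libraries (0.97 ± 0.31). Among genes of alternative activation 14 of 19 averaged lower in KO with a median of -0.43 and 0 apart. Gas6, a ligand of the Mertk receptor family, had 529.9, 352 and 238 TPM in KO libraries and 738, 634 and 490.5 TPM in control libraries (-0.79 ± 0.33). F13a1, a transglutaminase of coagulation, had 81.2, 26.3 and 6.54 TPM in KO libraries and 108, 94.4 and 70.4 TPM in control libraries (-1.82 ± 0.80). Of 27 genes of angiogenesis and matrix remodelling Tgfbi and Kdr were apart higher (7.41%, beside 2.15%) and Vegfa lower (3.70%, beside 6.38%). Kdr was no longer apart after quantile scaling. Mmp9, a gelatinase, overlapped at 19.7, 37.4 and 66.9 TPM in KO libraries and 10.1, 9.97 and 23.01 TPM in control libraries (1.40 ± 0.50).

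Interferon-stimulated genes averaged higher in KO in nearly every case, yet no member separated the groups. Of 59 kept genes 57 were higher, with a median of 0.73, and 0 were apart or passed. Summed, they took 6753, 9188 and 39297 TPM in KO libraries and 5757, 4590 and 18810 TPM in control libraries. KO-301 and HET-129 were the high libraries of their groups. Ifitm3, a restriction factor against enveloped viruses, had 2821, 3289.6 and 8777 TPM in KO libraries and 2464, 1914 and 6267 TPM in control libraries (0.49 ± 0.60). Ly6e, an interferon-induced membrane protein, had 968, 1839.8 and 5821 TPM in KO libraries and 632, 690.3 and 1410.0 TPM in control libraries (1.36 ± 0.67). Without KO-301 and HET-129 the median was 0.49, 55 of 59 were higher, and 30 of 59 (50.8%) had both KO libraries above both control libraries, beside 11.0% of all genes. Leaving out single mice moved the median between -0.14, without KO-301, and 1.45, without HET-129. MHC class I genes were highest in the same libraries, with 20 of 24 higher, a median of 0.45 (-0.16 without KO-301) and no gene apart with KO higher. B2m, the shared light chain, had 7578, 9002 and 20179 TPM in KO libraries and 6819.6, 5144 and 16987 TPM in control libraries (0.40 ± 0.59). Canx, a chaperone in the list, was the single gene apart, with KO lower (-0.36, 4.17% beside 6.38% of all genes). It was no longer apart after quantile or median-of-ratios scaling.

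**Figure D5:**
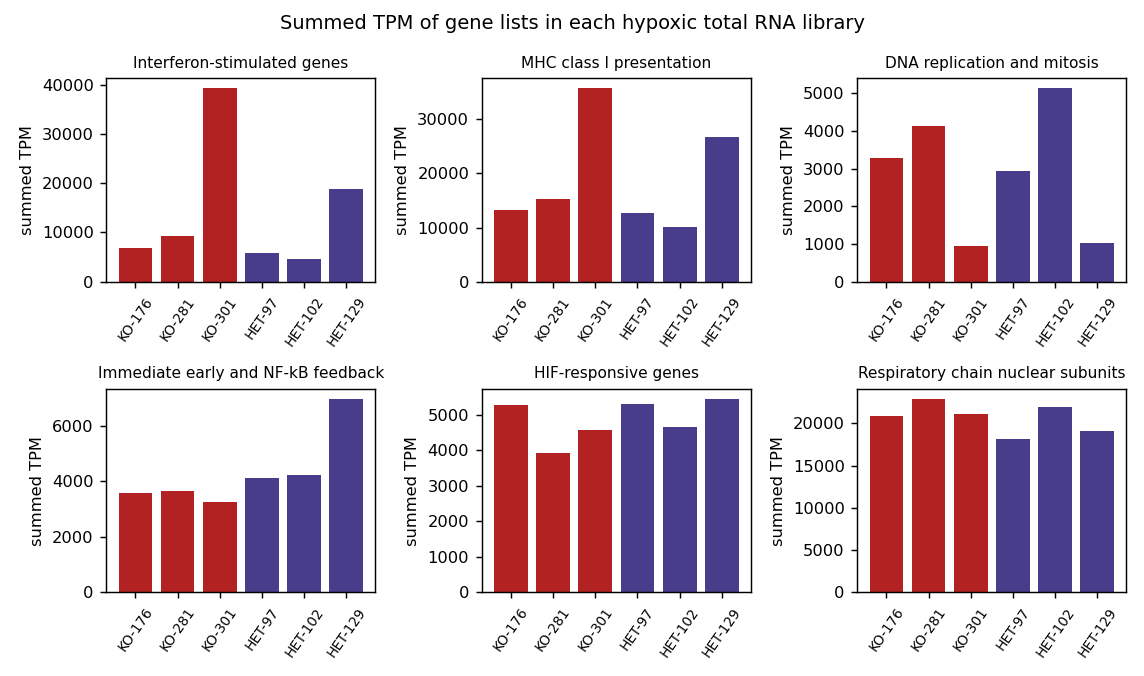
Summed TPM of 6 gene lists in each hypoxic total RNA library, KO mice on the left in red and control mice on the right in blue. KO-301 and HET-129 are highest for interferon-stimulated genes and lowest for DNA replication and mitosis, and all KO bars are below all control bars for the immediate early list.

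Genes of DNA replication and mitosis were lowest in that pair of libraries. They summed to 3283, 4120 and 939 TPM in KO and to 2935, 5131 and 1017 TPM in control libraries. Of 50 genes 42 averaged lower in KO with a median of -0.18 and 0 apart. Cenpa, a centromeric histone, had 121, 75.8 and 7.81 TPM in KO libraries and 102.5, 148 and 34.6 TPM in control libraries (-0.91 ± 1.03). The median was -0.99 without HET-129 and 0.73 without KO-301.

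Nuclear genes of the respiratory chain averaged slightly higher in KO. Of 80 kept genes 63 were higher, 17 lower, the median was 0.12 and 7 were apart, all with KO higher (8.75%, against 2.15% of all genes): Cox6a2, Ndufv2, Ndufb10, Ndufa6, Ndufa3, Atp5f1 and Atp5o. Ndufb10, a subunit of complex I, had 233, 262 and 241 TPM in KO libraries and 183, 199 and 203 TPM in control libraries (0.33 ± 0.15). Ndufv2, of the same complex, had 175.7, 221 and 128 TPM in KO libraries and 117, 108 and 126 TPM in control libraries (0.54 ± 0.23). Over the alternatives run the median of this list was between 0.08 and 0.25. After quantile scaling 6 of 80 (7.5%) were apart higher and after median-of-ratios scaling 11 (13.8%), beside 3.72% and 3.70% of all genes. Each scaling kept 4 of the 7 genes above. Quantile scaling lost Atp5f1, Atp5o and Ndufv2, and median-of-ratios scaling lost Atp5f1, Ndufa3 and Ndufa6. Of the 7, Cox6a2 alone was apart at 20% oxygen and 0 were apart in TRAP RNA, beside 20.6% and 18.6% of the 253 genes apart with KO higher in hypoxic total RNA. Mitochondrially encoded messages instead averaged lower in 7 of 11 genes, summing to 36868, 32835 and 7154 TPM in KO and to 27166, 26482 and 15662 TPM in control libraries, with KO-301 and HET-129 lowest. Without this pair their median was 0.56, against -0.22 with it. mt-Nd4, a complex I subunit, was uneven at 2139, 2806 and 259.9 TPM in KO libraries and 348, 215 and 128.8 TPM in control libraries (2.44 ± 0.91). Cytosolic ribosomal protein genes had a median of 0.04 over 84 genes (-0.04 after quantile scaling) and 0 apart.

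Cholesterol genes averaged lower in KO in 33 of 37 cases, with a median of -0.34, and 2 (5.41%) were apart lower, beside 6.38% of all genes. The median was 0.04 without KO-301. Mylip, the ubiquitin ligase that degrades the LDL receptor, had 10.4, 11.8 and 11.0 TPM in KO libraries. Control libraries had 17.1, 12.99 and 17.9 TPM (-0.48 ± 0.20), and Mylip was apart in all 3 settings in the deposited values. After quantile or median-of-ratios scaling of hypoxic total RNA 0 of the 37 genes were apart lower, so Mylip was no longer apart there. Apoe, the most abundant, had 795, 228 and 4412 TPM in KO libraries and 2137, 2140.0 and 2686 TPM in control libraries (-1.31 ± 0.98), with KO-281 low and KO-301 high. Lysosomal genes had a median of -0.14 over 45 genes with Laptm5 alone apart, at -0.17 (2.22% lower, beside 6.38% of all genes). After median-of-ratios scaling Laptm5 was no longer apart. The NRF2 and glutathione list had a median of -0.06 over 28 genes (0.06 after median-of-ratios scaling). Nfe2l2 was apart lower (-0.28, 3.57% beside 6.38% of all genes) and Prdx1 apart higher (0.33, 3.57% beside 2.15%). Prdx1 was not apart after quantile or median-of-ratios scaling, nor Nfe2l2 after median-of-ratios scaling. The stress and unfolded protein response list, at 0.03 over 43 genes, had Creld2 apart higher (0.43, 2.33% beside 2.15%). Among 44 Rab GTPases the median was -0.12, with Rab29 apart higher (2.27%, beside 2.15% of all genes) and Rab21 and Rab33b apart lower (4.5%, beside 6.38%).

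Among nuclear long noncoding RNAs, Neat1, the scaffold of paraspeckles, was apart with KO higher, at 110.3, 64.2 and 108 TPM in KO libraries and 51.6, 10.4 and 43.1 TPM in control libraries (1.63 ± 0.59). Its KO libraries also lay above the control libraries in hypoxic TRAP RNA, at 96.1, 61.6 and 37.4 against 31.3, 1.66 and 3.03 TPM, while at 20% oxygen they overlapped (1.01). Epb41l4aos was apart higher as well (0.36), though not after median-of-ratios scaling. The 21 kept genes of this list had a median of -0.03 (0.07 after quantile scaling), and 2 (9.52%, beside 2.15% of all genes) were apart higher. Of the lists of other cell types, the stromal one had 6 of 14 genes kept, all higher in KO at low level. Acta2 and Tagln were apart (33.3%, beside 2.15% of all genes), but Tagln was not after quantile scaling. The stromal list was highest in KO-301 and HET-129. The neutrophil list had 8 of 17 kept, of which 6 averaged higher and 2 lower in KO, with a median of 0.17. The 2 lower genes, Padi4 and Prtn3, were apart (25%, beside 6.38% of all genes). Prtn3 was at 0.406, 0 and 0.0768 TPM in KO libraries and 2.24, 1.15 and 4.35 TPM in control libraries. Lymphocyte, dendritic and osteoclast lists had 4, 3 and 8 genes kept and 0 apart, and the part that such cells play in any difference was not tested.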

How the data were processed

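Poly(A) RNA-seq of total RNA from 3 KO and 3 control mice at 1% oxygen was compared, with total RNA at 20% oxygen and TRAP RNA at 1% oxygen of the same mice set beside it. The values are TPM, as deposited by the authors, with total RNA and TRAP RNA in separate tables that were normalised apart. HISAT, DESeq2 and GRCm38 appear, per the submitters' processing notes, with no role or version, and how TPM was computed is not given in the sources used here. Each TPM column sums to between 999629 and 999969, so read depth is unknown and no counting interval is given. A further 24 columns, of ratios per mouse, were not used.

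Values were taken as log2(TPM + 1), which understates changes of low genes, for genes with at least 1 TPM in 3 of 6 libraries. They were fitted with limma 3.58.1 (limma-trend) in R 4.3.3, unpaired, with Benjamini-Hochberg adjustment over all genes and a two-sided threshold of 0.05. KO and control mice carry different numbers, so no library pairs across genotypes. The 2 oxygen levels of a mouse are paired by its number in the labels, with deviations from group means correlated at 0.565 to 0.795 within a mouse, so the oxygen comparison had a mouse block. Errors are SE for log2 differences. The fits were also run on simulated data with known changes. Noise there was drawn separately for each gene, so shifts shared by the genes of a library were not covered. P-values measure the spread between the libraries of 3 mice a group.

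Genes were annotated by Ensembl identifier with GENCODE M21 (233 identifiers not matched, and 27 symbols deposited as dates replaced). Whether reads were counted by strand is not stated. Elavl1 was always named, and otherwise up to 10 genes a direction that passed or, failing that, had the smallest p, among genes that were apart and averaged 4 TPM or more. A further 10 genes with clone names or pseudogenes would have been named as higher by this rule. Of each list the 2 members of highest TPM and the 2 of smallest p could be named, and members that were apart are named in addition, after their values were seen, as are Pum2, mt-Tc and the genes called when mice were left out. The genes, lists and tests were chosen with earlier results of these data known. The nonamer scan, the shares of genes apart at 20% oxygen or in TRAP RNA, and the counts of list members apart after other scalings or without KO-301 and HET-129, were added after the data were seen.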

Additional observations from a re-analysis of the deposited data

How the results depend on the processing

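With pseudocounts of 0.1 and 4, no filter beyond TPM above 0, a filter at 5 TPM, quantile or median-of-ratios scaling, rescaling without mitochondrial and ribosomal protein genes, no trend, robust moderation, library weights or a fit of 12 libraries, limma called 0 genes higher and 0 lower in KO. With the mouse as a random replicate block in the fit of 12 libraries (within-mouse correlation 0.698) it also called 0 and 0, with 320 genes at an unadjusted p under 0.05. Leaving out single mice gave 0 to 1 genes higher and 0 to 1 lower: 1500015A07Rik higher and C5ar1 lower without KO-176, Arhgap19 lower without KO-281 and Gm11942 lower without KO-301. Without KO-301 and HET-129 together there was 1 gene higher, Gm28037, and 1 lower, Gm11942. The number at an unadjusted p under 0.05 ran from 172 without HET-97 to 851 without KO-176, against 371, and was 688 with no filter, where 21187 genes were tested. The cause was not tested.

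For the dependence of the genotype difference on oxygen, 0 genes were called without the replicate block (105 at an unadjusted p under 0.05 against 574 with it), 2 with a pseudocount of 0.1 (Pum2 and mt-Tc) and 0 with the filter at 5 TPM or quantile scaling. Leaving out a mouse gave 0 to 1, namely Il10rb without KO-281 and Plagl2 without HET-102. The cause was not tested. Elavl1 ran from -0.36 to 0.37 when single mice were left out, and was above 0 without HET-102 (0.37), without KO-301 (0.01) and after median-of-ratios scaling (0.04).

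The log2 difference ran from -3.57 to -3.04 for C5ar1 and from 1.43 to 1.93 for Spr. The 20 named genes were chosen as apart, which fixes their sign in most alternatives. Of 30 list medians 11 kept their sign throughout. Count tests such as edgeR were not run because TPM are not counts. Depth is unknown, so no counting error can be set beside genes near 1 TPM.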
